A study of Mus musculus with 6 samples.

Results

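Nitric oxide, arginine and itaconate metabolism was examined through 9 genes (Nos2, Gch1, Ass1, Slc7a2, Arg1, Arg2, Odc1, Sat1 and Acod1) in macrophages challenged with Candida albicans. The genes were taken by symbol, and all 9 were found among the 54532 genes of the table. RNA sequencing had been done on 3 libraries of wild type (WT) macrophages, with replicate numbers 1, 2 and 3, and 3 libraries of progranulin knock out (PGRN KO) macrophages, with replicate numbers 4, 5 and 6. Both groups were of strain C57BL/6J and both received the fungus for 6 hours, by the labels at 1 fungal cell per macrophage and 2000000 cells per well. Unchallenged cells were not analysed here, so the data hold no baseline. Progranulin is a secreted and lysosomal glycoprotein encoded by Grn.

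The labels describe macrophages from the peritoneal cavity, whereas the study's own text speaks of bone marrow-derived cells, and of a different ratio of fungus to macrophages, so that neither the source of the sequenced cells nor this ratio is settled. The study gives an age for the mice of its infection model and for the recipients of its bone marrow chimeras. It describes its mice as matched for sex and age. How many mice, and of what age, stand behind a library is not stated in these sources, and p-values measure only the spread between these libraries. According to the methods of the study, PGRN KO and WT mice came from different suppliers, so that genotype and origin of the mice cannot be told apart.

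Arginine is the shared substrate of a pair of competing routes in macrophages. Inducible nitric oxide synthase, encoded by Nos2, turns it into nitric oxide and citrulline, a reaction that needs the cofactor tetrahydrobiopterin (BH4), and arginases turn it into urea and ornithine, the precursor of the polyamines. Itaconate is made from the citric acid cycle intermediate cis-aconitate by the mitochondrial enzyme encoded by Acod1, and it is a known brake on inflammatory macrophages.

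The genes that break arginine down and begin polyamine synthesis were lower in PGRN KO macrophages, and the genes of nitric oxide and itaconate synthesis were not detectably different. Arg1, Arg2 and Odc1 fell to between 0.506 and 0.639 times the WT mean, whereas Nos2, Gch1, Ass1, Slc7a2, Sat1 and Acod1 did not pass the test. Genes were compared as log2(FPKM + 1), where FPKM is fragments per kilobase of gene model, scaled to library size, with limma and Benjamini-Hochberg adjustment over the 8882 genes whose mean over the libraries reached 1 FPKM. All 9 genes passed this filter. Of the 9, 3 were significantly lower (limma adjusted p under 0.05), against 13.8% of all tested genes, and 0 were significantly higher, against 10.4% of all tested genes. At an unadjusted p under 0.05 the count was also 3 of 9, and it was 3469 of the 8882 tested genes. A total of 24.2% of tested genes passed in either direction, so that 3 of 9 lay near the background share. WT and PGRN KO values were fully separated in 3 of the 9 genes, against 48.8% of all tested genes. The median log2 fold change was -0.19 over the 9 genes and -0.03 over all tested genes. Of the genes that passed, 42.8% were higher as deposited, 60.3% after rescaling to TPM and 62.2% when fragment totals set the library size, and the 3 calls were kept under both.

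The libraries held 15996786 to 17551619 counted fragments. Each of the 9 genes was covered by between 1116 and 68220 fragments in a library, so that counting error was smaller than the spread between libraries. Grn was at 323, 337 and 325 FPKM in WT and at 0.0166, 0 and 0.0167 FPKM in PGRN KO, as the labels state. PGRN KO replicate 6 stood apart from the other libraries in a way that followed gene length. Across tested genes, its deviation from the gene mean had a Spearman correlation of -0.471 with gene length, against 0.151 to 0.243 in the other 5 libraries. Calls that change without it are therefore given for the genes named, and 41.3% of tested genes and 4 of the 9 genes then passed in either direction.

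The sum of 8 macrophage markers was 11618 to 12561 FPKM in WT and 10445 to 14377 FPKM in PGRN KO, and most of it came from Lyz2, Cd14 and Cd68. Adgre1 was at 162 to 195 FPKM. Of the 8, Csf1r fell from 32.5 ± 1.29 to 24.7 ± 0.905 FPKM (limma adjusted p 0.0178) and Mertk rose from 1.41 ± 0.229 to 3.24 ± 0.514 FPKM (limma adjusted p 0.00640). Of 6 markers of resident large peritoneal macrophages, Prg4 was at 10.4 to 16.2 FPKM, Gata6 at 3.78 to 5.07 FPKM and F5 at 1.14 to 2.25 FPKM, and none of these 3 passed. Icam2 rose from 3.10 ± 0.163 to 5.10 ± 0.526 FPKM (limma adjusted p 0.00914). Timd4 and Selp were at no more than 0.204 FPKM in every library. Markers of other cells differed between the groups. The summed level of 6 B cell markers was 4.79 to 6.08 FPKM in WT and 19.0 to 24.1 FPKM in PGRN KO, and all 6 were higher in each PGRN KO library than in any WT library. The sum of 6 mast cell markers was 2.29 to 3.19 FPKM in WT and 9.72 to 14.0 FPKM in PGRN KO, with 5 of 6 separated in this way. The sum of 9 neutrophil markers was 60.7 to 66.9 FPKM in WT and 32.5 to 36.4 FPKM in PGRN KO. Of these, Elane and Ly6g were at 0 in all libraries, S100a9, Mpo, Camp, Ltf and Retnlg were at no more than 0.443 FPKM, and S100a8 was at 50.0 ± 2.46 FPKM in WT and significantly lower, at 23.3 ± 2.20 FPKM, in PGRN KO (SD, n = 3 each, limma adjusted p 0.00142). Of 6 T cell markers 4 were higher in each PGRN KO library, with sums of 2.26 to 3.40 and 3.18 to 5.37 FPKM, and of 6 fibroblast or mesothelial markers 4 were, with sums of 0.925 to 1.06 and 1.92 to 3.50 FPKM. Eosinophil markers summed to at most 0.249 FPKM. The part of these cells in the results was not tested, and fewer cells of a type cannot be told apart from less RNA per cell.

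**Figure D1:**
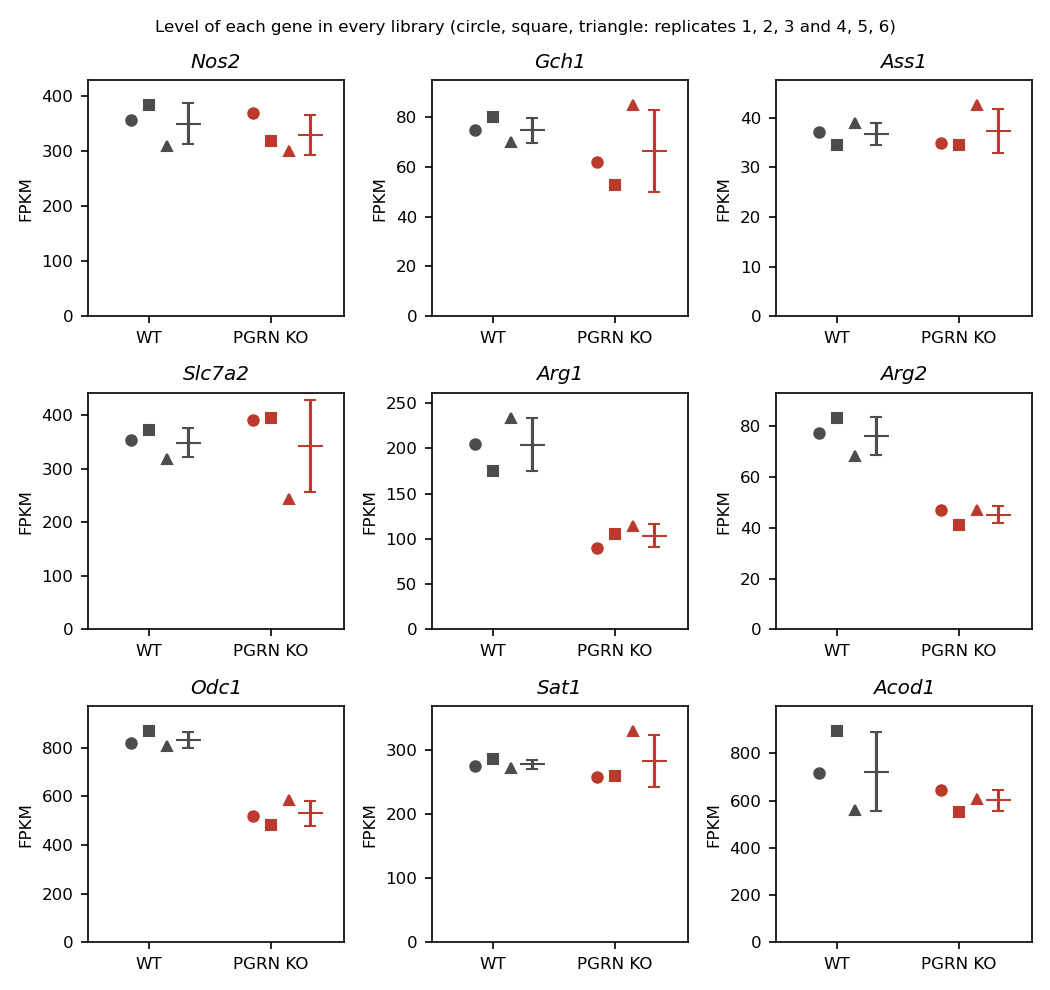
Level of each of the 9 genes in FPKM (vertical axes, starting at 0) in the 3 WT libraries (grey) and the 3 PGRN KO libraries (red), with the mean and SD beside the points. Arg1, Arg2 and Odc1 show no overlap between the groups, and PGRN KO replicate 6 (red triangle) stands apart from replicates 4 and 5 for Slc7a2, Gch1 and Sat1.

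The arginases were examined first. Arg1 (ENSMUSG00000019987, chromosome 10, 24915221 to 24927484, minus strand, GRCm38), which encodes the cytosolic enzyme known as a marker of alternative activation, was at 205, 175 and 233 FPKM in WT and at 89.6, 106 and 114 FPKM in PGRN KO. Every PGRN KO library lay below every WT library. The mean of Arg1 fell from 204 ± 29.1 to 103 ± 12.7 FPKM (SD, n = 3 each). Its log2 fold change in limma was the largest among the 9 genes, at -0.97 ± 0.14 (SE), with an adjusted p of 0.00559. The highest WT library was replicate 3 and the lowest was replicate 2. An exact two-sided permutation test of its 6 values gave p = 0.1, and no smaller value is possible with 3 libraries per group.

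Arg2 (ENSMUSG00000021125, chromosome 12, 79130777 to 79156301, plus strand), which encodes the mitochondrial arginase, was at 77.3, 83.1 and 68.4 FPKM in WT and at 47.2, 41.3 and 46.8 FPKM in PGRN KO. The groups again did not overlap, and the PGRN KO libraries lay close together. The mean of Arg2 fell from 76.3 ± 7.41 to 45.1 ± 3.33 FPKM, and limma put its log2 fold change at -0.74 ± 0.11 (SE) and its adjusted p at 0.00536. Its exons share 285 of 1428 bases with Vti1b on the opposite strand, and the strand setting of the counting is not known from the sources at hand. Vti1b was at 26.3 to 45.2 FPKM and did not pass (limma, 0.30 on the log2 scale, adjusted p 0.246). No 31-base word of the Arg1 or Arg2 transcripts occurs in transcripts of other genes, so that the arginases do not share reads with each other.

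Both arginases kept their call under all 15 alternative settings, with limma adjusted p from 0.000206 to 0.0361 for Arg1 and from 0.000272 to 0.0381 for Arg2. The ratio of Arg1 to Arg2 within a library was 2.65, 2.10 and 3.41 in WT and 1.90, 2.56 and 2.44 in PGRN KO. These ratios overlapped, so that no shift from one arginase to the other was detectable. A ratio within a library does not depend on how libraries are scaled to each other. Where the genes of a ratio differ in length, it can still carry the trend with gene length of PGRN KO replicate 6.

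Next, the polyamine genes were compared. Odc1 (ENSMUSG00000011179, chromosome 12, 17544794 to 17551505, plus strand) encodes ornithine decarboxylase, which converts the ornithine made by arginases into putrescine, the first polyamine. It was the most abundant of the 9 genes in WT, at 817, 867 and 805 FPKM, which placed it at rank 53 of all genes by mean WT level. In PGRN KO it was at 521, 483 and 585 FPKM, below every WT library. The mean of Odc1 fell from 829 ± 32.9 to 530 ± 51.5 FPKM, and limma put its log2 fold change at -0.65 ± 0.11 (SE) and its adjusted p at 0.00866. Its call was kept in 14 of 15 alternatives and was lost without WT replicate 1, where the limma adjusted p was 0.0541. A share of 31.3% of its 31-base words occurs in other transcripts, mainly those of Gm7993, so that a part of its reads is uncertain. Gm7993 itself was low, at 3.93 to 7.52 FPKM, and it also fell (limma, -0.53 on the log2 scale, adjusted p 0.0191).

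The 250 bases before the RefSeq start of Odc1 are shown because Odc1 is the most abundant of the genes that fell. They lie at chr12:17544623-17544872 (GRCm38.p6, plus strand) and hold 80.0% G and C. Capitals mark matches on either strand to the GC box GGGCGG, of which there are 4, and to TGACG, a core of cyclic AMP response elements, with 1 match that begins 79 bases before the start. No match to the E-box CACGTG or to TATAAA lies in this window. The gene model counted here begins earlier than the RefSeq start, at 17544794, inside the window. The TGACG match and the last GC box therefore lie within that model.
Odc1: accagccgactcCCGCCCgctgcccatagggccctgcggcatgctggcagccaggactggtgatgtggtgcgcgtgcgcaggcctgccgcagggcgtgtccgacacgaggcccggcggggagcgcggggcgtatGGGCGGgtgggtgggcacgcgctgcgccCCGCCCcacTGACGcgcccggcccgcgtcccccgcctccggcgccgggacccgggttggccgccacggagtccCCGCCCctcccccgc
Among 32851 promoters of this length, 32.7% hold GGGCGG, 17.8% TGACG, 6.02% CACGTG and 12.4% TATAAA. A match describes the letters only.

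Sat1 (ENSMUSG00000025283, chromosome X, 155213132 to 155216449, minus strand) encodes the acetyltransferase that starts polyamine breakdown and export. It was at 275, 285 and 273 FPKM in WT and at 258, 260 and 329 FPKM in PGRN KO. In PGRN KO, replicate 6 lay above and the other 2 lay below all WT libraries. The log2 fold change was 0.01 (95% interval -0.27 to 0.30, limma adjusted p 0.939), and without PGRN KO replicate 6 it was -0.10 (limma adjusted p 0.145). Sat1 is X-linked. The Y-linked Ddx3y was measured at 8.16 to 13.6 FPKM and Xist at no more than 0.004 FPKM in every library, so that no library had a female pattern. The ratio of Odc1 to Sat1, which weighs the first step of synthesis against the first step of breakdown, was 2.97, 3.04 and 2.95 in WT and 2.02, 1.86 and 1.78 in PGRN KO. It did not overlap between the groups and varied little within them, with means of 2.99 ± 0.0460 and 1.88 ± 0.122.

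Genes of nitric oxide synthesis did not pass. Nos2 (ENSMUSG00000020826, chromosome 11, 78920787 to 78960254, plus strand) was at 357, 383 and 309 FPKM in WT and at 369, 319 and 300 FPKM in PGRN KO. The groups overlapped, and both held Nos2 at rank 145 of all genes by mean level. The log2 fold change was -0.09 ± 0.13 (SE) with a 95% interval from -0.39 to 0.21 and a limma adjusted p of 0.648. It passed in 0 of 15 alternatives, all of them limma fits, with adjusted p from 0.403 to 0.997, and its unadjusted p was 0.52. The interval leaves room for a fall down to -0.39, which is short of the values fitted for Arg1, Arg2 and Odc1. Nos2 lies on the same chromosome as Grn, at a distance of 23.5 megabases.

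The ratios of Nos2 to the arginases were higher in each PGRN KO library than in any WT library. The ratio of Nos2 to Arg1 was 1.74, 2.19 and 1.33 in WT and 4.12, 3.01 and 2.62 in PGRN KO, with means of 1.75 ± 0.432 and 3.25 ± 0.779. The ratio of Nos2 to Arg2 was 4.61, 4.61 and 4.52 in WT and 7.82, 7.73 and 6.40 in PGRN KO. Neither ratio overlapped between the groups. Nos2 itself overlapped between the groups, and both arginases did not. The ratio of Acod1 to Nos2 overlapped, at 1.81 to 2.33 in WT and 1.74 to 2.02 in PGRN KO.

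**Figure D2:**
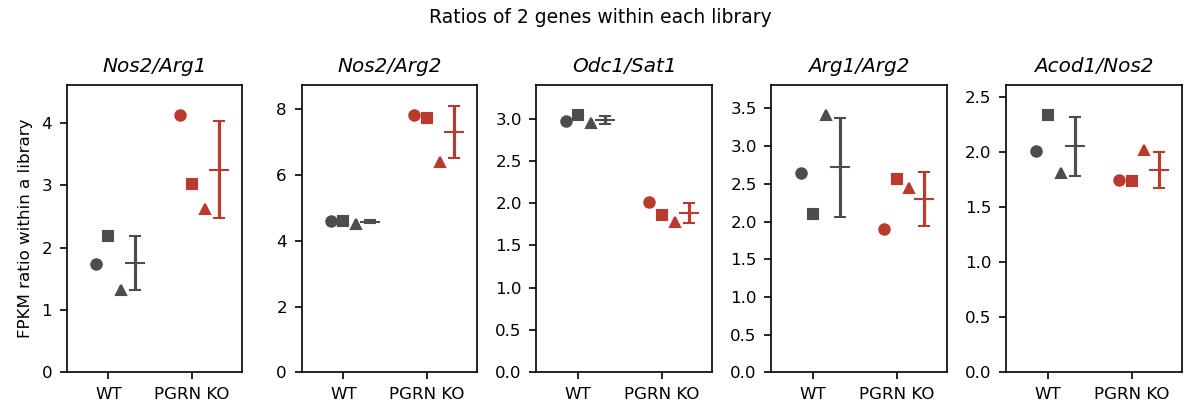
Ratio of the FPKM of a pair of genes within each library (vertical axes, starting at 0) in WT (grey) and PGRN KO (red), with the mean and SD beside the points. The ratios of Nos2 to Arg1, Nos2 to Arg2 and Odc1 to Sat1 separate the genotypes, and those of Arg1 to Arg2 and Acod1 to Nos2 overlap.

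Gch1 (ENSMUSG00000037580, chromosome 14, 47153895 to 47189413, minus strand) encodes GTP cyclohydrolase 1, the first and rate-limiting enzyme of BH4 synthesis. It was at 74.6, 79.7 and 69.7 FPKM in WT and at 62.0, 52.5 and 84.6 FPKM in PGRN KO. Here too replicate 6 lay above and the other 2 PGRN KO libraries lay below all WT libraries. With all libraries the log2 fold change was -0.19 ± 0.17 (SE) and the limma adjusted p 0.443. Without PGRN KO replicate 6 Gch1 passed as lower, at -0.38 on the log2 scale (limma adjusted p 0.0195). Gch1 in replicate 6 lay above the mean of replicates 4 and 5 by 0.56 on the log2 scale, whereas the median of 1845 genes of like length lay at -0.14. Its high value in this library thus went against the trend with gene length there.

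Ass1 (ENSMUSG00000076441, chromosome 2, 31470207 to 31520672, plus strand) encodes argininosuccinate synthetase, which recycles the citrulline left by nitric oxide synthesis toward arginine. It was the lowest of the 9 genes, at 37.1, 34.4 and 38.8 FPKM in WT and 34.9, 34.4 and 42.4 FPKM in PGRN KO, and the groups overlapped. The log2 fold change was 0.02 with a 95% interval from -0.25 to 0.28 and a limma adjusted p of 0.931. Its values are uncertain, since 43.1% of its 31-base words occur in other transcripts, mainly those of Gm5424, which was listed at 24.3 to 38.3 FPKM. Gm5424 did not pass either (limma, 0.14 on the log2 scale, adjusted p 0.528).

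Slc7a2 (ENSMUSG00000031596, chromosome 8, 40862396 to 40922308, plus strand) encodes the cationic amino acid transporter CAT2, which brings arginine into activated macrophages. It was at 354, 373 and 319 FPKM in WT and at 392, 394 and 244 FPKM in PGRN KO. In this gene replicate 6 lay below and the other 2 PGRN KO libraries lay above all WT libraries. The log2 fold change was -0.05 with a 95% interval from -0.52 to 0.42 and a limma adjusted p of 0.866, and it was 0.18 without PGRN KO replicate 6 (limma adjusted p 0.113). When each library was also corrected for gene length, the fit without this replicate gave 0.22 with a limma adjusted p of 0.0365, a setting chosen after the data were seen. Slc7a2 is the longest of the 9 gene models, at 9135 bases. It lay at -0.68 in replicate 6 against the mean of replicates 4 and 5 on the log2 scale, in the direction of the median of -0.28 for 1129 genes of like length. Of its exonic bases 635 are shared with Gm26584 on the opposite strand, which was at no more than 8.14 FPKM.

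**Figure D3:**
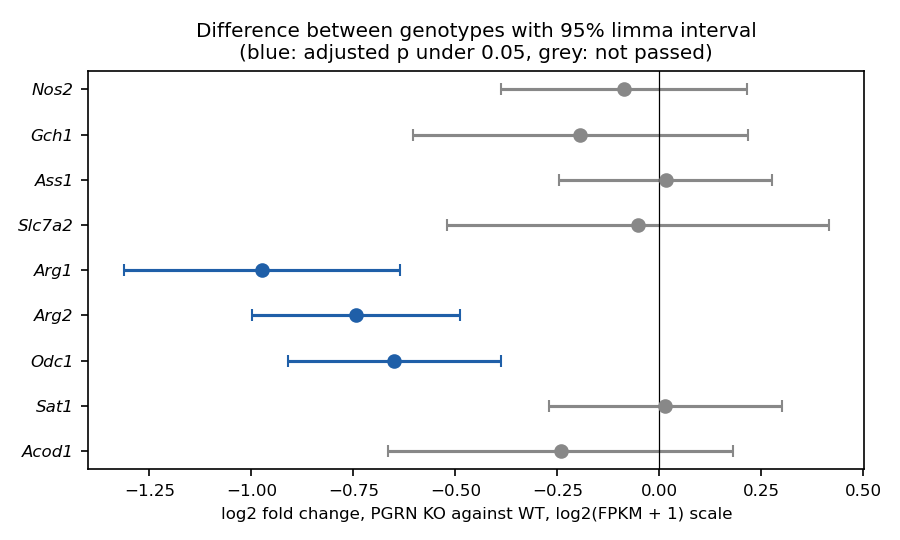
Log2 fold change of PGRN KO against WT on the log2(FPKM + 1) scale (horizontal axis) with the 95% limma interval for each of the 9 genes. Arg1, Arg2 and Odc1 (blue) lie between -0.97 and -0.65 with intervals below 0, and the intervals of the other 6 genes (grey) include 0.

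Acod1 (ENSMUSG00000022126, chromosome 14, 103046977 to 103056573, plus strand), which encodes the enzyme that makes itaconate, was at 717, 893 and 558 FPKM in WT and at 644, 553 and 605 FPKM in PGRN KO. The WT libraries spread widely and contained all but 1 of the PGRN KO values. Acod1 was at 723 ± 167 and 601 ± 45.6 FPKM, with a log2 fold change of -0.24 ± 0.18 (SE), a 95% interval from -0.66 to 0.18 and a limma adjusted p of 0.353. It passed in 0 of 15 alternatives, all limma fits, with adjusted p from 0.132 to 0.778 and an unadjusted p of 0.218 as deposited. The interval includes the value fitted for Odc1.

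The 250 bases before the RefSeq start of Acod1 are shown beside those of Odc1, since both genes were among the most abundant and only Odc1 passed. They lie at chr14:103046762-103047011 (GRCm38.p6, plus strand) and hold 44.4% G and C. Here too the gene model counted begins inside the window, at 103046977, and the TATAAA match named next lies within that model. Capitals mark TATAAA, with its match beginning 28 bases before the start, GGAAATTCC, which has the form of an NF-kB site, at 85 bases, and AANNGAAA, a core of interferon regulatory factor sites, at 63 bases.
Acod1: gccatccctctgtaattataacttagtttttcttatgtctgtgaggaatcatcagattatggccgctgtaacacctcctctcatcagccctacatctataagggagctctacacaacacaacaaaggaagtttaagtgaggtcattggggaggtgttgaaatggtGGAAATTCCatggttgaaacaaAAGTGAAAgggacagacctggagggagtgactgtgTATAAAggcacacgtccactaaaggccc
All motifs searched here, in both promoters, were chosen after the sequences were seen. GGAAATTCC occurs in 0.286% of all promoters of this length, and AANNGAAA in 21.3%. RefSeq promoters matched 5 of the 9 genes (Acod1, Ass1, Gch1, Odc1 and Sat1), and neither motif lies in the windows of the other 4.

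The order of levels per length was similar in both genotypes. In WT it ran Odc1, Acod1, Nos2, Slc7a2, Sat1, Arg1, Arg2, Gch1 and Ass1, and the neighbours Odc1 and Acod1, Nos2 and Slc7a2, and Arg2 and Gch1 overlapped. In PGRN KO Acod1, at 601 ± 45.6 FPKM, stood before Odc1, and Gch1, at 66.4 ± 16.5 FPKM, stood before Arg2. Acod1 and Odc1, Slc7a2 and Nos2, Nos2 and Sat1, and Arg2 and Ass1 overlapped there as neighbours. Arg1 moved from rank 248 to rank 465 and Arg2 from rank 614 to rank 970 of all genes by mean level.

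Under the alternatives, Nos2 lay between -0.17 and 0.01 and Acod1 between -0.41 and -0.08 on the log2 scale. Gch1 passed in 3 of 15 alternatives, each of which left out PGRN KO replicate 6 or gave it a low weight, and was lower in each. Slc7a2 passed in 1. Ass1, Sat1, Nos2 and Acod1 passed in none, with lowest limma adjusted p of 0.340, 0.145, 0.403 and 0.132.

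**Figure D4:**
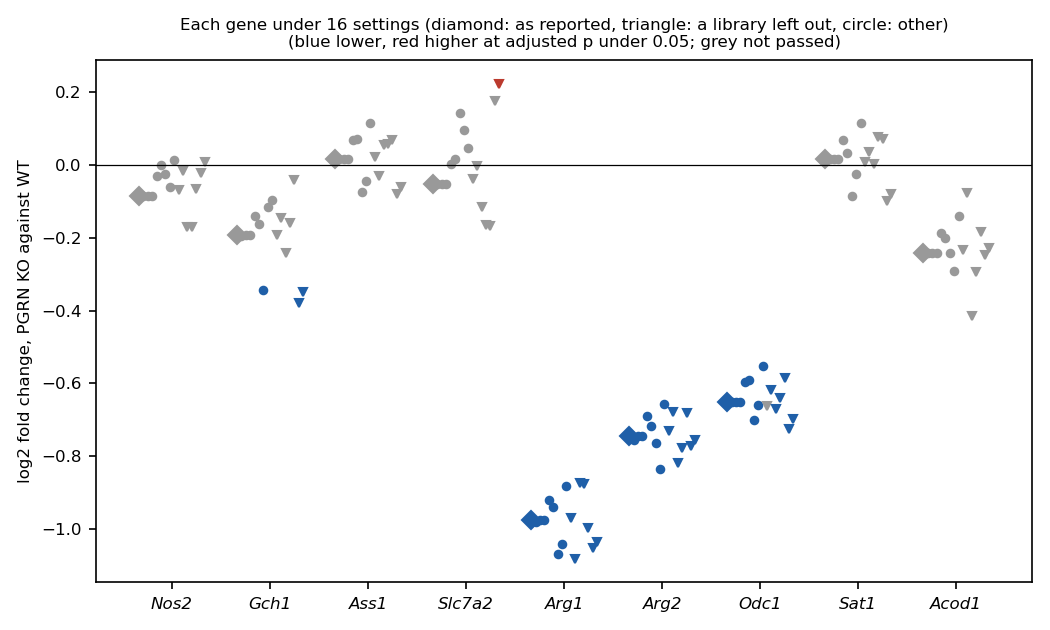
Log2 fold change of PGRN KO against WT (vertical axis) for each gene as reported (diamond), with a library left out (triangle) and under the other alternatives (circle). Points for Arg1, Arg2 and Odc1 stay between -1.08 and -0.55 and are blue (lower, adjusted p under 0.05), with 1 exception for Odc1, and the points of Nos2, Ass1, Slc7a2 and Sat1 fall on both sides of 0.

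The remaining genes of the pathways were read from lists. Of 7 further genes of BH4 synthesis and recycling 3 were tested and 0 passed in limma, with 1 (Qdpr) at an unadjusted p under 0.05. Qdpr, which regenerates BH4, was at 5.68, 6.09 and 5.70 FPKM in WT and at 7.10, 7.56 and 11.3 FPKM in PGRN KO, with a limma adjusted p of 0.0743, and Pcbd2 was at 7.17 ± 0.523 and 11.1 ± 4.61 FPKM, with 0.163. Both were highest in PGRN KO replicate 6, but without this library Qdpr passed as higher, at 0.29 on the log2 scale (limma adjusted p 0.0143), and it passed in 6 of 15 alternatives. Pts, which follows Gch1 in BH4 synthesis, was below the filter, and so was Gchfr, the feedback regulator of Gch1. Of 9 genes for the other nitric oxide synthases, for nitric oxide sensing and for control of these enzymes 3 were tested and 0 passed in limma, with 0 at an unadjusted p under 0.05. Nos1 was at 0 and Nos3 at no more than 0.140 FPKM in every library, so that Nos2 was the nitric oxide synthase gene measured at a level above the filter. Nosip was at 6.37 ± 0.0613 and 7.34 ± 1.61 FPKM.

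Of 15 genes of arginine, citrulline and ornithine handling 4 were tested and 0 passed in limma, with 1 at an unadjusted p under 0.05. Oat, which sends ornithine toward proline, averaged 21.9 ± 0.438 FPKM with progranulin and 21.9 ± 1.92 FPKM without it, with a limma adjusted p of 0.978. Asl, which completes the citrulline cycle after Ass1, was at 8.66 ± 0.186 and 9.32 ± 2.25 FPKM, with 0.751. Cps1 and Otc, hepatic urea cycle enzymes of which Otc makes citrulline, were at 0 in every library. Gamt, the last enzyme of creatine synthesis, was below the filter at 0.786, 1.36 and 0.921 FPKM in WT and 0.360, 0.293 and 0.361 FPKM in PGRN KO, and was named after its values were seen.

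Of 7 further genes of cationic amino acid transport 4 were tested and 0 passed in limma, with 1 (Slc7a1) at an unadjusted p under 0.05. Slc3a2, the heavy chain shared by several amino acid transporters, was at 374 ± 6.30 and 327 ± 54.4 FPKM (limma adjusted p 0.284). Slc7a1, the constitutive arginine transporter CAT1, was at 24.4, 24.7 and 22.2 FPKM in WT and 18.3, 19.7 and 11.2 FPKM in PGRN KO. The groups did not overlap, and the limma adjusted p was 0.0900. Without PGRN KO replicate 6 both passed as lower, Slc7a1 at -0.31 (limma adjusted p 0.0152) and Slc3a2 at -0.34 on the log2 scale (limma adjusted p 0.00376).

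Of 16 further polyamine genes 13 were tested, of which Azin1 was significantly lower and Mtap significantly higher. Azin1 encodes antizyme inhibitor 1, which protects ornithine decarboxylase from degradation. It fell from 32.3 ± 0.489 to 25.1 ± 2.47 FPKM (limma, -0.35 on the log2 scale, adjusted p 0.0401), and its call was kept in 6 of 15 alternatives. Mtap, of the methionine salvage that follows polyamine synthesis, rose from 0.998 ± 0.0910 to 1.54 ± 0.0515 FPKM (limma, 0.35 on the log2 scale, adjusted p 0.0333), with the call kept in 7 of 14 alternatives. Smox, which oxidizes spermine, was at 215 ± 7.16 and 175 ± 29.2 FPKM (limma adjusted p 0.133), and it passed as lower without PGRN KO replicate 6, at -0.43 on the log2 scale (limma adjusted p 0.00825). Oaz1, the antizyme that directs ornithine decarboxylase to the proteasome, was at 115, 119 and 123 FPKM in WT and at 107, 112 and 170 FPKM in PGRN KO (limma adjusted p 0.735), the last in replicate 6. The median log2 fold change of the 13 genes was 0.00.

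Of 23 genes of the citric acid cycle and its neighbours around itaconate 22 were tested, and 2 were significantly higher, Fh1 and Sucla2. Fh1, which encodes fumarase, rose from 2.96 ± 0.0508 to 4.55 ± 0.536 FPKM (limma, 0.48 on the log2 scale, adjusted p 0.0156), and Sucla2, a subunit of succinyl-CoA synthetase, rose from 4.26 ± 0.130 to 5.53 ± 0.439 FPKM (limma, 0.31 on the log2 scale, adjusted p 0.0448). The calls were kept in 11 and 7 of 14 alternatives. Acly, which cleaves citrate in the cytosol, was at 56.4 ± 2.81 and 45.3 ± 3.70 FPKM (limma adjusted p 0.0545), and it passed as lower without PGRN KO replicate 6, at -0.25 on the log2 scale (limma adjusted p 0.0217). Sdhd, a subunit of succinate dehydrogenase, the enzyme that itaconate is known to inhibit, was at 38.4 ± 0.790 and 41.2 ± 6.38 FPKM (limma adjusted p 0.638). The median log2 fold change of the 22 genes was 0.13.

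Of 11 transcription factors known to act on Nos2 or Arg1 10 were tested, and Nfkb1 and Irf8 were significantly lower. Nfkb1 fell from 85.2 ± 5.69 to 59.5 ± 6.68 FPKM (limma, -0.51 on the log2 scale, adjusted p 0.0193) and Irf8 from 54.7 ± 2.51 to 36.9 ± 6.65 FPKM (limma, -0.57 on the log2 scale, adjusted p 0.0293). Nfkb1 kept its call in 11 of 15 alternatives and Irf8 in 10. Cebpb, a factor of the Arg1 enhancer, was at 1269, 1326 and 1204 FPKM in WT and at 957, 946 and 1426 FPKM in PGRN KO. With all libraries its limma adjusted p was 0.400, and without PGRN KO replicate 6 Cebpb passed as lower, at -0.41 on the log2 scale (limma adjusted p 0.00417). Hif1a was at 139 ± 13.1 and 119 ± 18.8 FPKM (limma adjusted p 0.279).

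Since Arg1 is one of the genes of alternative activation, 10 others were read beside it. Of 9 tested, 3 were significantly higher and 3 significantly lower, so that the list did not move one way with Arg1. Chil3, which encodes the chitinase-like protein Ym1, rose from 1328 ± 58.8 to 2343 ± 201 FPKM (limma, 0.82 on the log2 scale, adjusted p 0.00505). Mgl2, a lectin gene, rose from 5.49 ± 0.122 to 9.81 ± 1.85 FPKM (limma adjusted p 0.0102). The chemokine gene Ccl24 rose from 2.04 ± 0.348 to 3.51 ± 0.814 FPKM (limma adjusted p 0.0396). The call of Mgl2 was kept in 14 of 15 alternatives. That of Ccl24 was kept in 9 of 14 and was lost whenever a WT library was left out. Clec10a, a lectin gene related to Mgl2, fell from 2.65 ± 0.171 to 0.958 ± 0.105 FPKM (limma, -0.90 on the log2 scale, adjusted p 0.00201), and the chemokine gene Ccl22 fell from 14.1 ± 1.32 to 7.65 ± 1.10 FPKM (limma, -0.81 on the log2 scale, adjusted p 0.00633). Il4ra, a chain of the receptor through which interleukin-4 raises Arg1, was the third gene that fell, from 59.1 ± 0.763 to 43.2 ± 2.33 FPKM, and is named here outside the rule for named genes. Retnla was at 29.0 ± 1.83 and 26.3 ± 8.45 FPKM (limma adjusted p 0.550), and without PGRN KO replicate 6 it passed as lower, at -0.42 on the log2 scale (limma adjusted p 0.0103). Mrc1 was at 9.36 ± 0.622 and 7.57 ± 1.57 FPKM (limma adjusted p 0.193).

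**Figure D5:**
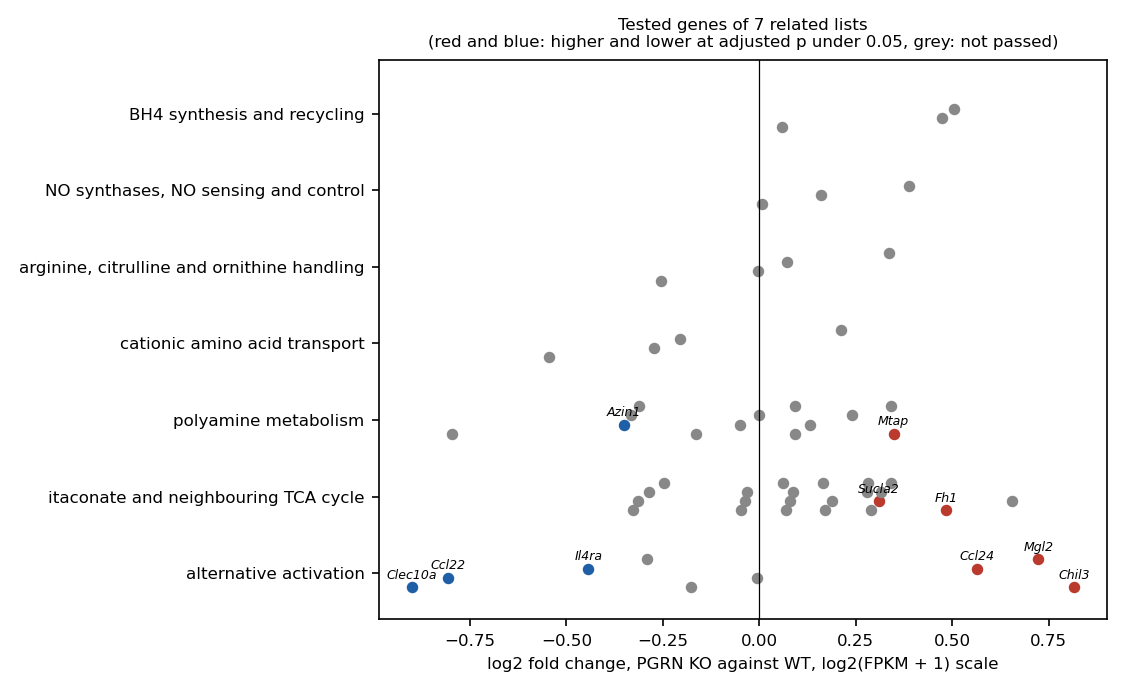
Log2 fold change of PGRN KO against WT (horizontal axis) for the tested genes of 7 related lists (rows), with genes past an adjusted p of 0.05 in red (higher) or blue (lower) and named. The 14 tested genes of the first 4 lists are all grey, whereas 6 of the 9 tested genes of alternative activation passed, 3 in each direction.

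Genes with the most similar pattern over the 6 libraries were found by Pearson correlation of log2(FPKM + 1), given as a description. For Nos2 these were Heatr9 (0.994), Lrch1 (0.991) and Fbxw2 (0.976), none of which passed the test between genotypes. For Acod1 they included Lcp2 (0.988) and Zfp36 (0.981), which did not pass either and which, like Acod1, were highest in WT replicate 2 and lowest among WT libraries in replicate 3. For Arg1 they were Rgs2 (0.997), St6galnac4 (0.997) and Tpcn2 (0.997). Rgs2 and St6galnac4 passed as lower, at -1.41 and -0.33 on the log2 scale (limma adjusted p 0.00242 and 0.0312). Tpcn2 did not pass, at -0.20 (limma adjusted p 0.110). Rgs2, a regulator of G protein signalling, was at 9.71, 8.28 and 12.1 FPKM in WT and at 2.52, 3.32 and 3.56 FPKM in PGRN KO. A correlation above 0.95 was shared with Arg1 by 232 genes, with Nos2 by 10 and with Acod1 by 13. All points of a gene share their libraries, and the difference between genotypes enters the values for Arg1.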

How the data were processed

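Polyadenylated RNA of macrophages was sequenced in 6 libraries (NEBNext Ultra kit). The authors removed reads of low quality or with adaptors, aligned the rest to the mouse genome and counted fragments per gene. The methods of the study name HISAT and HTSeq, whereas the submitters' processing notes name HISAT2 2.0.5, featureCounts 1.5.0-p3, DESeq2 1.20.0 and GRCm38. The authors deposited FPKM per library, with the gene length in bases. Multiplied by gene length, 100% of the values came out whole in units of 1 fragment (tolerance 0.001), which gave the fragments per gene. The fragments summed to 15996786 to 17551619 per library, and the library size used by the authors was 0.925 to 1.09 times that sum. Of the genes, 99.8% were found by identifier in GENCODE M21 (GRCm38), 98.3% of these at the same position.

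The test was limma 3.58.1 (R 4.3.3) on log2(FPKM + 1), a scale that understates changes of low genes, with a mean-variance trend, no covariates, a mean FPKM of at least 1 and a two-sided adjusted threshold of 0.05. The study fitted a count model. Here the deposited FPKM were tested as such, and the recovered fragments entered an alternative with voom. Fits were tested on simulated data with known changes. The simulated libraries carried no trend with gene length, so that test does not cover what sets PGRN KO replicate 6 apart. Alternatives are given in the closing section. Named genes were the 9 genes, Grn, up to 5 genes past the threshold and 2 not past it per related list, and the genes of like pattern, of which some are not reported here. The 9 genes and the lists were chosen with earlier results of these data known. Promoters are those of RefSeq on GRCm38.p6.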

Additional observations from a re-analysis of the deposited data

How the results depend on the processing

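No paired analysis was possible because the labels do not say whether any WT and PGRN KO libraries belong together. The main test called 2151 genes. The count was 1366 without a filter, where more genes are adjusted together, 4225 with sample quality weights, which weighted PGRN KO replicate 6 by 0.0899, and 3664 with a gene length correction after PGRN KO replicate 6 was left out, an alternative chosen after seeing the data. Leaving out each library gave 713 to 3668 genes, the fewest without WT replicate 1 and the most without PGRN KO replicate 6, with 855 when WT replicate 2 was left out, 883 for WT replicate 3 and 1390 for PGRN KO replicate 4. Of the 9 genes 3 were called, 5 with the gene length correction without PGRN KO replicate 6, where Gch1 was also lower and Slc7a2 higher, and 2 to 4 with each library left out. The cause of these shifts was not tested.

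The genes that changed sign did not pass in the main test. Under voom on fragments, the log2 fold change of Nos2 was 0.013, that of Slc7a2 0.047 and that of Oat 0.095. On the TPM scale Slc7a2 was 0.0019 and Oat 0.048, and with quantile normalization Slc7a2 was 0.015 and Oat 0.026. With sample quality weights Ass1 was -0.074, Slc7a2 0.14, Sat1 -0.087, Asl -0.087, Oaz1 -0.086 and Sdhd -0.037. With the gene length correction Ass1 was -0.044, Slc7a2 0.094, Sat1 -0.026 and Sdhd -0.0027, and when PGRN KO replicate 6 was also left out Nos2 was 0.0069, Ass1 -0.062, Slc7a2 0.22, Sat1 -0.079, Asl -0.072 and Oaz1 -0.10. With each library left out the ranges were -0.079 to 0.068 for Ass1, -0.17 to 0.18 for Slc7a2, -0.10 to 0.075 for Sat1, -0.073 to 0.032 for Oat, -0.099 to 0.18 for Asl, -0.12 to 0.21 for Oaz1 and -0.016 to 0.21 for Sdhd. Over 38 genes of the pathways and lists, 564 values under alternatives were set against the reported one. Of these, 454 had its sign and its side of the threshold, 42 fell short of the threshold, 34 came past it and 34 changed sign. The libraries held 22863 to 28202 Nos2 fragments.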
